A study of Mus musculus with 160 samples.

Results

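Brown fat was compared with visceral fat by RNA sequencing in male mice. The inbred strains were SJL, DBA/2J, A/J and C57BL/6J. From 12 to 18 weeks of age, after a start on chow, each mouse ate 1 of 4 diets made for mice after human patterns of eating (vegan, vegetarian, Mediterranean and American), so that tissue was taken after 6 weeks of diet. All 32 brown fat libraries and 31 of the 32 visceral fat libraries were used, which is 63 of the 160 libraries of the series, with 2 libraries of each tissue for every strain on every diet, except that visceral fat of SJL mice on the American diet had 1. The visceral library of SJL mouse 50 was left out because of its measured values: Wt1, a regulator made in mesothelium, was at 0 CPM and Hoxc10, which marks the hind part of the body axis, was at 16.2 CPM (CPM are counts per 1e6 counts of the library). The labels give the depot as visceral without naming which visceral pad was taken, and every mouse had eaten 1 of the 4 diets, so the comparison is between tissues and not between treatments. Both tissues came from the same animal in 29 mice. Strain and diet were terms of the models, except that the fit within mice had a term for each mouse instead and fits of 1 strain had no strain term.

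Brown fat burns fuel to make heat. Its adipocytes hold many small lipid droplets and many mitochondria, and the carrier UCP1 lets protons cross the inner mitochondrial membrane without making ATP, a process that noradrenaline from sympathetic nerves switches on. Visceral fat is white fat that stores triglyceride and secretes hormones such as leptin, and mesothelium, the sheet of cells that lines the abdominal cavity, covers its surface.

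Library totals ranged from 18.0 M to 28.3 M counts (M for 1e6) in brown fat and from 20.5 M to 54.8 M in the 31 visceral libraries. Transcripts of other tissues were present in both depots. Alb, the main plasma protein of hepatocytes, stood at 0.00201 to 21.4% of its mean liver level in brown fat (median 0.0882%) and at 0.0110 to 62.2% in visceral fat (median 4.17%). It passed 10% of the liver level in 4 brown and 9 visceral libraries, called Alb-rich below. Ckm, the muscle creatine kinase, was at 0.296 to 7.24% of its muscle level in brown fat and at up to 26.5% in visceral fat. Libraries past 10% for Alb, for Ckm or, in visceral fat, for Ucp1, together with 3 brown libraries rich in B cell genes, are called foreign below (7 brown and 11 visceral libraries). The part of these transcripts in the differences was not tested, and results that move without these libraries are given with both values. The CPM levels below are scaled by TMM, a factor per library that centres most genes. Differences are log2 brown minus visceral from edgeR's quasi-likelihood test with their standard error (SE), and p-values are adjusted over all genes tested (Benjamini-Hochberg).

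Ucp1 ranged from 3025 to 12158 CPM in brown fat (median 8913) and from 0.0451 to 2830.0 CPM in visceral fat (median 6.36). With TMM scaling no visceral library reached the lowest brown library. In CPM of plain library totals the tissues overlapped: visceral mouse 24 had 2986 CPM and brown mouse 9 had 2372.5 CPM. The log2 difference was 6.23 (SE 0.719, adjusted p = 1.62e-11), or 8.90 within mice, that is with the mouse as a replicate block. Cidea, a lipid droplet protein that is abundant in brown fat, stood at 1223 to 2346 CPM in brown fat (median 1854) and at 1.40 to 683 CPM in visceral fat (median 14.6), a log2 difference of 5.67 (SE 0.433, adjusted p = 4.63e-18) that was 6.50 within mice. Zic1, a transcription factor that marks the interscapular brown lineage, was at 2.90 to 11.3 CPM in brown fat (median 6.94) and at 0 to 3.24 CPM in visceral fat (median 0). Only the visceral library of A/J mouse 24 reached the brown range of Zic1. The log2 difference of Zic1 was 5.60 (SE 0.443, adjusted p = 1.74e-17) and 6.39 without mouse 24. Lhx8, another developmental regulator found in brown fat, had medians of 2.54 CPM in brown fat and 0.0365 CPM in visceral fat (log2 4.38, SE 0.410, adjusted p = 9.84e-15), and its ranges overlapped.

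The genes of visceral identity separated the tissues in the other direction. Wt1 was at 0 to 0.523 CPM in brown fat (median 0) and at 5.54 to 17.9 CPM in visceral fat (median 12.1), a log2 difference of -7.67 (SE 0.262, adjusted p = 2.36e-34). Upk3b, a uroplakin that marks mesothelial cells, was at 0 to 2.76 CPM in brown fat (median 0) and at 54.5 to 187 CPM in visceral fat (median 103), with a log2 difference of -9.40 (SE 0.394, adjusted p = 9.94e-30; -10.14 by DESeq2). Neither gene overlapped between the tissues. For Wt1 this depended on leaving out visceral mouse 50, whose Wt1 of 0 CPM lay in the brown range. The test of Wt1 thus used libraries chosen in part by its own values. Upk3b also marks mesothelium, and its range with mouse 50 is not given here. Both depots are fat, and the pan-adipocyte gene Fabp4, a fatty acid carrier, did not differ past the test: it was at 4960.4 to 10858 CPM in brown fat (median 7092) and at 3494 to 11435 CPM in visceral fat (median 6757), a log2 difference of 0.07 (95% interval -0.08 to 0.22, adjusted p = 0.370) whose sign turned with the scaling (-0.48 with plain library totals).

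**Figure D1:**
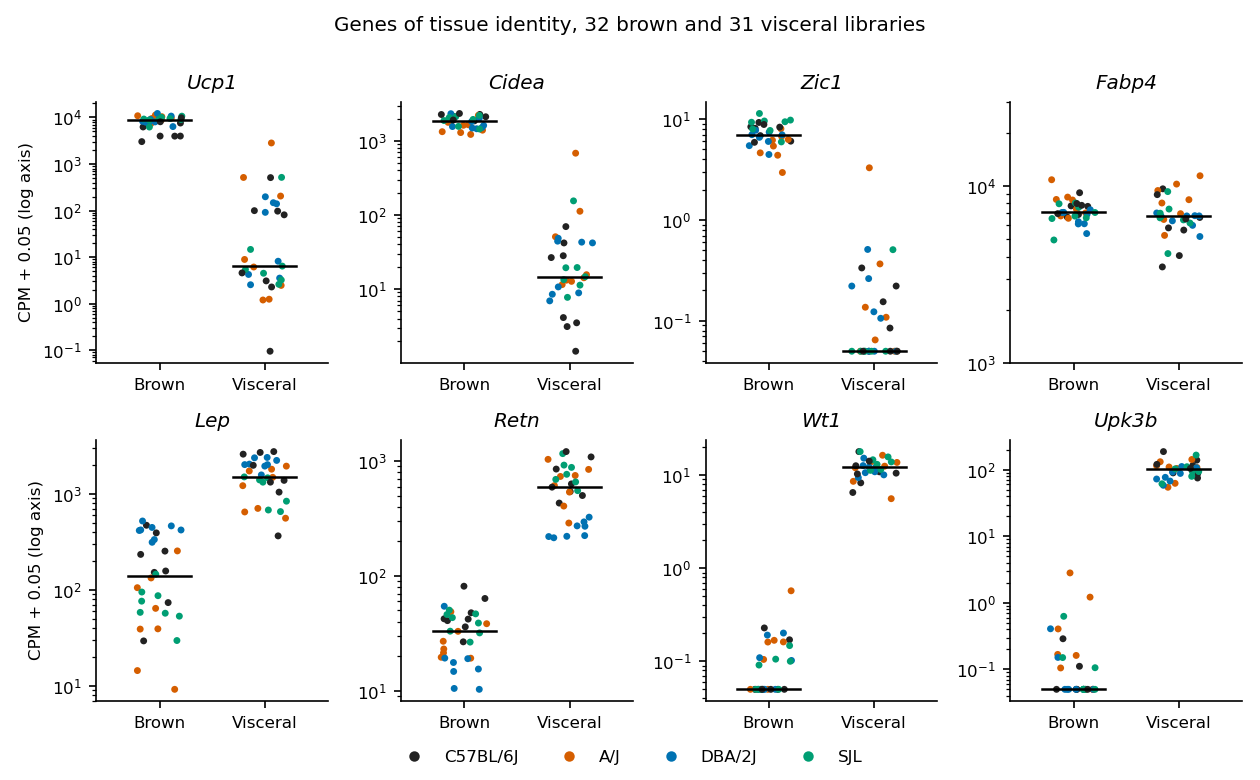
CPM (TMM-scaled, plus 0.05, log axis) of 8 genes in each brown library (left in each panel) and each visceral library (right), coloured by strain, with a black bar at the median. At this scaling Ucp1, Cidea, Retn, Wt1 and Upk3b do not overlap between the tissues, Zic1 and Lep overlap in their tails, and Fabp4 overlaps throughout. With plain library totals Ucp1 overlaps. The visceral library of mouse 50, left out in part for its Wt1 of 0 CPM, is not shown.

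Of 18740 genes tested, 15538 (82.9%) passed the test, 7560 of them higher in brown fat (40.3%) and 7978 lower (42.6%). A stricter test asked for a difference beyond 2-fold. It was passed by 4652 genes (24.8%), 1795 higher in brown fat (9.58%) and 2857 lower (15.2%), and the median log2 difference of all genes was -0.02. The 2 tissues did not overlap at all for 2005 genes (10.7%), of which 1269 were higher in brown fat (6.77%) and 736 higher in visceral fat, that is lower in brown fat (3.93%). These shares are the background against which the counts of each gene group are read.

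The direction of small differences depended on the scaling. Mitochondrial transcripts took 13.5 to 25.2% of the counts in brown fat and 2.73 to 8.87% in visceral fat. With plain library totals the median log2 difference of all genes was -0.55 and the calls split into 3336 higher and 13184 lower. In the authors' deposited TPM it was -0.70, with 2295 higher and 15741 lower by limma. Whether brown fat held less RNA of most genes or a larger share of mitochondrial RNA cannot be told apart in these data, and in bulk tissue fewer cells of a type cannot be told apart from less RNA per cell. Beyond 2-fold, 950 genes were higher and 4957 lower with plain totals, and the groups below whose direction turned with the scaling are named as such.

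A rule chose the 12 largest rises and the 12 largest falls among protein coding genes. They had to pass the 2-fold test with and without the Alb-rich libraries and have 1 sign in all 4 strains. Genes of the mitochondrial genome, given below, and genes with placeholder symbols were left out of this ranking. The rule was met by 962 genes higher and 1534 genes lower in brown fat. Among the rises, Rspo4, an R-spondin that enhances Wnt signalling, had a median of 14.96 CPM in brown fat (1.40 to 63.1) and 0.0288 CPM in visceral fat (0 to 3.55), a log2 difference of 6.37 (SE 0.515, adjusted p = 4.88e-17; 7.24 without mouse 24 and 7.05 without the Alb-rich libraries). Lgr6, a receptor of R-spondins, was at 41.7 to 193 CPM in brown fat (median 91.8) and at 0.0268 to 24.7 CPM in visceral fat (median 0.448), with no overlap (log2 6.03, SE 0.468, adjusted p = 1.03e-17; 7.06 within mice). A ligand and a receptor of the same family thus stood among the leading rises. Acot11, a thioesterase that releases fatty acids from coenzyme A, stood at 494 to 1575 CPM in brown fat (median 828.8) and at 2.12 to 262 CPM in visceral fat (median 7.26), a log2 difference of 5.81 (SE 0.408, adjusted p = 1.41e-19; 6.59 within mice). Ntrk3, the receptor of neurotrophin-3, was at 172 to 519 CPM in brown fat (median 325) and at 2.18 to 80.2 CPM in visceral fat (median 6.57), a log2 difference of 5.17 (SE 0.265, adjusted p = 9.05e-26). The other rises were Ucp1, Cidea and Zic1 given above, Gldn, which helps to assemble the nodes of nerve fibres (log2 5.75), Fam151a (5.65, and 6.26 within mice), the organic anion transporter Slco4a1 (5.47), Atp4b, a subunit of the proton pump known from the stomach (5.21), and Cpt1b, the muscle form of the enzyme that brings long fatty acids into mitochondria (5.09).

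Among the 12 falls, Upk3b and Wt1 are given above, and 4 more are markers of mesothelium: the mucin Muc16 (log2 -9.06), the transcription factor Bnc1 (-8.52, and -9.13 without the Alb-rich libraries), the uroplakin Upk1b (-8.23) and mesothelin, Msln (-7.83). Muc16 was at 0 to 0.299 CPM in brown fat (median 0) and at 7.20 to 40.6 CPM in visceral fat (median 12.9). Lrp2, the endocytic receptor megalin, was at 0 to 0.947 CPM in brown fat (median 0) and at 5.05 to 50.4 CPM in visceral fat (median 10.95; log2 -7.43, SE 0.394, adjusted p = 4.73e-25; -8.42 without the Alb-rich libraries). Col6a5, a chain of the microfibril collagen VI, was at 0.0561 to 6.27 CPM in brown fat (median 0.943) and at 55.6 to 193 CPM in visceral fat (median 93.0), a log2 difference of -6.56 (SE 0.242, adjusted p = 2.06e-32). Others were the protease inhibitor Slpi (-6.66), Nkain4, a partner of the sodium pump (-6.45), and the lipoxygenase Alox15 (-6.23). None of the 12 overlapped between the tissues in the 63 libraries used. For Wt1 this depended on leaving out visceral mouse 50. The ranges of the others with that library are not given here, so whether they depended on it is not known.

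Genes of heat production rose together. Of 24 tested members of the list (Cited1 did not pass the filter on low counts), 23 were higher in brown fat and passed the 2-fold test, none was lower, and the median log2 difference was 4.18 (all genes: 9.58% higher beyond 2-fold, median -0.02). In 17 of them the tissues did not overlap. Dio2, which activates thyroid hormone inside the brown adipocyte, was at 11.2 to 614 CPM in brown fat (median 56.4) and at 0.180 to 9.08 CPM in visceral fat (median 1.35), a log2 difference of 5.07 (SE 0.341, adjusted p = 2.44e-20). Ppargc1a, a coactivator that drives the making of mitochondria, was at 29.6 to 383 CPM in brown fat (median 52.7) and at 2.93 to 17.0 CPM in visceral fat (median 5.81; log2 3.35, SE 0.169, adjusted p = 4.14e-26). Prdm16, a regulator that sets the brown fate, had medians of 36.5 CPM in brown fat and 6.79 CPM in visceral fat (log2 2.45, SE 0.0943, adjusted p = 5.12e-32). The potassium channel gene Kcnk3 differed by 3.24 and Cox8b, a subunit of cytochrome oxidase found in brown fat, heart and muscle, by 4.84. Elovl3, which lengthens fatty acids, ranged from 33.5 to 589 CPM in brown fat (median 201) and from 0.133 to 446 CPM in visceral fat (median 19.7). Its log2 difference was 2.04 (SE 0.489, adjusted p = 0.000170) and 4.52 without the foreign libraries. The 1 member that missed the test was the fatty acid transporter and ligase Slc27a2, which liver also expresses, at 0.28 (adjusted p = 0.564), against 1.92 without the foreign libraries and 1.09 within mice, both past the test.

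Promoters are shown for Ucp1, the gene that defines the tissue, and for Dio2, the 1 gene of heat production with a promoter match to the cAMP response element, the site through which noradrenaline signalling can act on genes. The sequences run from 250 bases before to 50 bases after the start in RefSeq's GRCm38.p6 annotation, chr8:83290098-83290397 on the plus strand for Ucp1 and chr12:90738989-90739288 on the minus strand for Dio2, and capitals mark the element TGACGTCA at positions -95 to -88 of Dio2.
Ucp1: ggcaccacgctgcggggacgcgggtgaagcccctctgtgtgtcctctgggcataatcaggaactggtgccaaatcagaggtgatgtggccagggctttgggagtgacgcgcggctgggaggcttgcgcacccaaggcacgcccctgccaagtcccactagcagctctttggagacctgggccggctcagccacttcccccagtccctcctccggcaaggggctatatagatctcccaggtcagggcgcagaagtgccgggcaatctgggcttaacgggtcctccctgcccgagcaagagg
Dio2: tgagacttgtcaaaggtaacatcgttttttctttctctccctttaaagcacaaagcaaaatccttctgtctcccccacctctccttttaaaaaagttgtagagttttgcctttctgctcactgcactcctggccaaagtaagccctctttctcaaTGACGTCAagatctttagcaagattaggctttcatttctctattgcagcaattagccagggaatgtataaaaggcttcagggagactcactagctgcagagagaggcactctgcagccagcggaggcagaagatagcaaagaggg
A promoter was found for 18 of the 25 genes of heat production. The motifs searched, on both strands, were TGACGTCA, which reads the same on both, the NRF1 core GCGCATGC and the element TCAAGGTCA of the estrogen-related receptors. The Ucp1 window held none of them. TGACGTCA occurred in 1.79% of all 32851 promoters, GCGCATGC in 2.71% and TCAAGGTCA in 0.423%. These matches describe letters and are not evidence of binding.

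The receptors of the sympathetic signal did not move as a group. Of 26 genes of adrenergic and thyroid signalling, 16 were higher (10 beyond 2-fold), 7 lower (3 beyond 2-fold) and 3 missed the test, with a median log2 difference of 0.66. With plain library totals 12 were higher and 12 lower. Adrb3, the receptor of the classic brown fat agonists, was at 192 to 525 CPM in brown fat (median 368) and at 103 to 828.9 CPM in visceral fat (median 406), a log2 difference of 0.04 (95% interval -0.20 to 0.29, adjusted p = 0.762) whose sign turned with the scaling (-0.51 with plain library totals). Adrb1 was at 14.7 to 53.9 CPM in brown fat (median 27.2) and at 2.14 to 12.6 CPM in visceral fat (median 4.46), with no overlap (log2 2.50, SE 0.138, adjusted p = 1.84e-24). Per transcript length, as the authors' deposited TPM, Adrb3 had medians of 197 TPM in brown fat and 385 TPM in visceral fat, and Adrb1 15.6 TPM in brown fat and 5.03 TPM in visceral fat, so Adrb3 was the more abundant of the 2 in both tissues. The alpha receptor Adra1a was higher in brown fat by 3.10 (SE 0.134, adjusted p = 2.02e-29). The enzymes that make cAMP moved in opposite directions. Adcy3 was at 62.4 to 387 CPM in brown fat (median 106) and at 13.6 to 53.5 CPM in visceral fat (median 24.9), while Adcy5 was at 5.70 to 26.5 CPM in brown fat (median 13.5) and at 72.5 to 215 CPM in visceral fat (median 175). The log2 differences were 2.17 for Adcy3 (SE 0.104, adjusted p = 2.01e-27) and -3.70 for Adcy5 (SE 0.103, adjusted p = 4.02e-38), and neither gene overlapped. Gnas, the G protein that couples the beta receptors to these enzymes, was higher by 2.32, and Npr3, which clears natriuretic peptides from the cell surface, was lower (log2 -2.05, adjusted p = 2.38e-22).

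Regulators of the brown lineage were mixed. Of 25 tested (of 29), 15 were higher, 4 lower and 6 missed the test, with a median log2 difference of 0.89, and in TPM 10 were higher and 10 lower of 22. The estrogen-related receptor Esrrg, which drives mitochondrial genes, was at 19.6 to 51.7 CPM in brown fat (median 33.0) and at 0.806 to 11.7 CPM in visceral fat (median 2.63; log2 3.502, SE 0.175, adjusted p = 2.43e-26). Its relative Esrra differed by 2.31. Ppara, the receptor that switches on fatty acid oxidation, had medians of 204 CPM in brown fat and 7.30 CPM in visceral fat (log2 3.75, SE 0.298, adjusted p = 2.30e-17; 4.68 without the Alb-rich libraries). Some members of the list were higher in visceral fat: Eya2, a coactivator of homeobox factors, by -2.67 (SE 0.133, adjusted p = 1.17e-26) and the forkhead factor Foxc2 by -3.13 (SE 0.183, adjusted p = 2.14e-23). Among the list of visceral regulators, 13 of 14 tested were lower in brown fat and 10 passed the 2-fold test, with none higher and a median of -3.09 (all genes: 15.2% lower beyond 2-fold). Osr1 was at 0.470 to 3.16 CPM in brown fat (median 1.58) and at 8.96 to 36.5 CPM in visceral fat (median 17.9), without overlap. Tcf21 (log2 -5.39, and -6.92 without the Alb-rich libraries) and Isl1 (-7.18), both transcription factors of the trunk mesoderm, also separated the tissues.

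HOX genes record the position of a tissue along the body axis, the low paralogue numbers toward the head and the high ones toward the tail. Of 27 tested (of 39), 20 were lower in brown fat, 4 higher and 3 missed the test, with a median log2 difference of -0.57. The 4 that were higher (Hoxa3, Hoxa4, Hoxa5 and Hoxc5) all belonged to paralogues 1 to 5, of which 6 of 13 were lower (median -0.14). All 5 tested members of paralogues 6 to 7 were lower (median -0.57), as were all 9 of paralogues 8 to 10 (median -2.37). Hoxa4 was at 9.25 to 18.7 CPM in brown fat (median 12.6) and at 1.31 to 5.68 CPM in visceral fat (median 2.43), without overlap (log2 2.31, SE 0.0949, adjusted p = 1.13e-30). Hoxc8 showed the opposite pattern, at 3.87 to 12.0 CPM in brown fat (median 7.12) and at 33.7 to 99.1 CPM in visceral fat (median 72.2; log2 -3.32, SE 0.117, adjusted p = 8.01e-34). Hoxc9 (log2 -4.70) and Hoxb9 (-3.18) were below 1 CPM in every brown library. With plain library totals 2 HOX genes were higher and 24 lower.

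**Figure D2:**
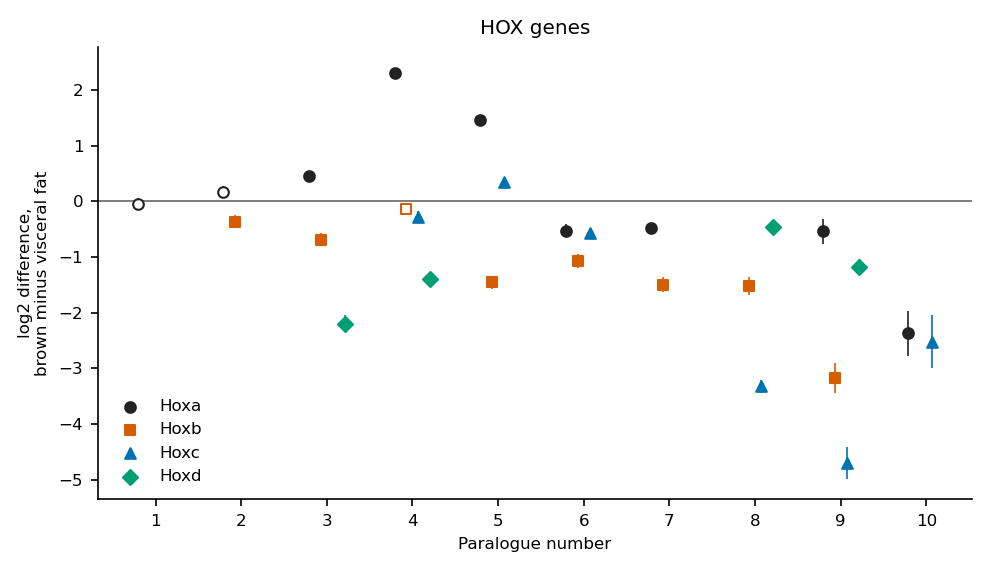
Log2 difference (brown minus visceral) of each tested HOX gene against its paralogue number, with bars of 1 SE and filled points for genes past the test. Genes above 0 are found at paralogues 5 and below, and the largest falls lie at paralogues 8 to 10.

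The nuclear subunits of the respiratory chain moved as a block. All 61 were higher in brown fat and passed the 2-fold test, all 61 were without overlap between the tissues (6.77% of all genes were higher without overlap), and the log2 differences ran from 1.17 to 2.96 with a median of 2.19. Cycs, the cytochrome c that carries electrons to the last complex, was at 494 to 897 CPM in brown fat (median 696) and at 57.6 to 299.5 CPM in visceral fat (median 94.8), a log2 difference of 2.82 (SE 0.0945, adjusted p = 8.72e-35). Uqcrc1, a core subunit of complex III, was at 1352 to 2251 CPM in brown fat (median 1588) and at 130.2 to 641 CPM in visceral fat (median 204; log2 2.96, SE 0.0972, adjusted p = 3.30e-35). Sdhb, the iron-sulfur subunit of complex II, differed by 2.76, and Ndufa11, an accessory subunit of complex I, by 1.70. With plain library totals all 61 were still higher, 55 beyond 2-fold. Of 18 tested subunits and partners of ATP synthase, which uses the proton gradient that UCP1 dissipates, 15 were higher (12 beyond 2-fold), with a median of 1.83. The 2 lower ones were Atp5if1, the inhibitor of the enzyme (5.39 CPM in brown fat and 13.8 CPM in visceral fat at the median, log2 -1.43, SE 0.0644, adjusted p = 1.13e-28), and Atp5mc1, 1 of 3 genes for the same membrane subunit c (17.2 CPM in brown fat and 37.5 CPM in visceral fat, log2 -1.24, SE 0.193, adjusted p = 6.05e-08). Atp5po, whose symbol names 2 gene identifiers, was left out.

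Of the 61 respiratory chain genes, 50 had a promoter in the RefSeq table. These genes were counted once each, with a match in any of their promoters. The share of all promoters counted each of the 32851 promoters of 27025 gene symbols, so the shares differ in unit. The NRF1 core was found in 8 of the 50 genes (16.0%, against 2.71% of all promoters) and the cAMP response element in 5 (against 1.79%), and the estrogen-related receptor element in 1. Cycs and Ndufa11 held both the first and the second, and their windows are shown for that reason, with the NRF1 core and the cAMP response element in capitals. They lie at chr6:50566520-50566819 on the minus strand and chr17:56717512-56717811 on the plus strand of GRCm38.p6. In Cycs the NRF1 core is read on the opposite strand (GCATGCGC), and in Ndufa11 matches of both strands overlap.
Cycs: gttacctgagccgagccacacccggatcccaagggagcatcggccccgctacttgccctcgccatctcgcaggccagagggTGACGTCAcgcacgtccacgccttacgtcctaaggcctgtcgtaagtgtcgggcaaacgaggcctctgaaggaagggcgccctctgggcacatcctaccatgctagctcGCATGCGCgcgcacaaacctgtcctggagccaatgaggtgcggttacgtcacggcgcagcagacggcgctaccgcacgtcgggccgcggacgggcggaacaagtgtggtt
Ndufa11: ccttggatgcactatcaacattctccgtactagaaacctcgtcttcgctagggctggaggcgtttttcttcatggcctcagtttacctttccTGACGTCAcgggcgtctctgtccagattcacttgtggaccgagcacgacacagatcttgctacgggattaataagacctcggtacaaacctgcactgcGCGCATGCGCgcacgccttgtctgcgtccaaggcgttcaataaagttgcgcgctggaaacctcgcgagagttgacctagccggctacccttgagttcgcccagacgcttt
No test of this share was run, and a window without a match says only that these letters are absent from it. Nrf1 itself, the factor named for the core, had medians of 13.4 CPM in brown fat and 14.2 CPM in visceral fat (log2 -0.06, 95% interval -0.13 to 0.01, adjusted p = 0.0911; -0.15 and past the test without the Alb-rich libraries). Esrra, given above, and Tfam, which packs and copies mitochondrial DNA (log2 1.104, adjusted p = 9.85e-24), were higher, and 13 of 15 genes of mitochondrial biogenesis rose, 8 of them beyond 2-fold.

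All 13 protein genes of the mitochondrial genome were higher in brown fat beyond 2-fold, with a median of 2.92. mt-Co1, the core of cytochrome oxidase, was at 51109 to 103452 CPM in brown fat (median 75989.9) and at 7577 to 32278 CPM in visceral fat (median 11066; log2 2.63, SE 0.0939, adjusted p = 1.57e-33). mt-Co2, from the same complex, was counted far less, at 249 to 8167 CPM in brown fat (median 972) and at 2.77 to 187 CPM in visceral fat (median 14.6), with a larger log2 difference of 5.13 (SE 0.448, adjusted p = 9.40e-16; 5.86 without the Alb-rich libraries). The same split held for mt-Atp8, mt-Atp6, mt-Co3, mt-Nd3 and mt-Nd4l: these 6 genes had differences of 5.06 to 5.78, and the other 7 had differences of 1.95 to 2.92. The deposited counts share reads with several positions among them, and near-identical copies of mitochondrial genes lie in the nuclear genome. The part of this sharing in the split was not tested. The levels and differences of these 6 are uncertain, and the median of 2.92 includes them.

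Genes that burn fuel rose as well. In the citric acid cycle 14 of 16 genes rose, all 14 beyond 2-fold, with a median of 2.85. Citrate synthase, Cs, was at 1976 to 3155 CPM in brown fat (median 2514) and at 263 to 1066 CPM in visceral fat (median 372; log2 2.72, SE 0.0793, adjusted p = 2.37e-37). In fatty acid oxidation 25 of 26 rose (21 beyond 2-fold, median 2.49), 20 of them without overlap. Acadl, which takes the first step on long chains, was at 1558 to 3459 CPM in brown fat (median 2547) and at 90.2 to 1053 CPM in visceral fat (median 167; log2 3.69, SE 0.150, adjusted p = 8.34e-31). The 2 forms of the enzyme at the entry to the pathway differed in opposite directions. Cpt1b was at 498 to 853 CPM in brown fat (median 713) and at 3.25 to 243 CPM in visceral fat (median 11.5). Cpt1a, the liver form, was the 1 member that fell, at 22.1 to 144 CPM in brown fat (median 33.6) and at 94.9 to 314 CPM in visceral fat (median 117; log2 -1.81, SE 0.155, adjusted p = 3.65e-16), and it differed by -1.86 without the Alb-rich libraries. Glucose uptake and glycolysis rose in 24 of 26 genes (22 beyond 2-fold, median 2.26). The insulin-responsive transporter Slc2a4 differed by 2.09, the hexokinase Hk2 by 2.59 and pyruvate kinase, Pkm, by 2.78. Of the kinases that hold back the burning of pyruvate, Pdk4 was higher by 4.40 (SE 0.246, adjusted p = 3.81e-24) and Pdk3 lower, at -2.29 (SE 0.0902, adjusted p = 1.55e-31). In the use of branched-chain amino acids 18 of 22 genes rose (median 1.28): Bckdha, a subunit of the committing dehydrogenase, differed by 2.23, while the amino acid transporter Slc7a5 was lower (log2 -2.72, SE 0.178, adjusted p = 3.86e-21).

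**Figure D3:**
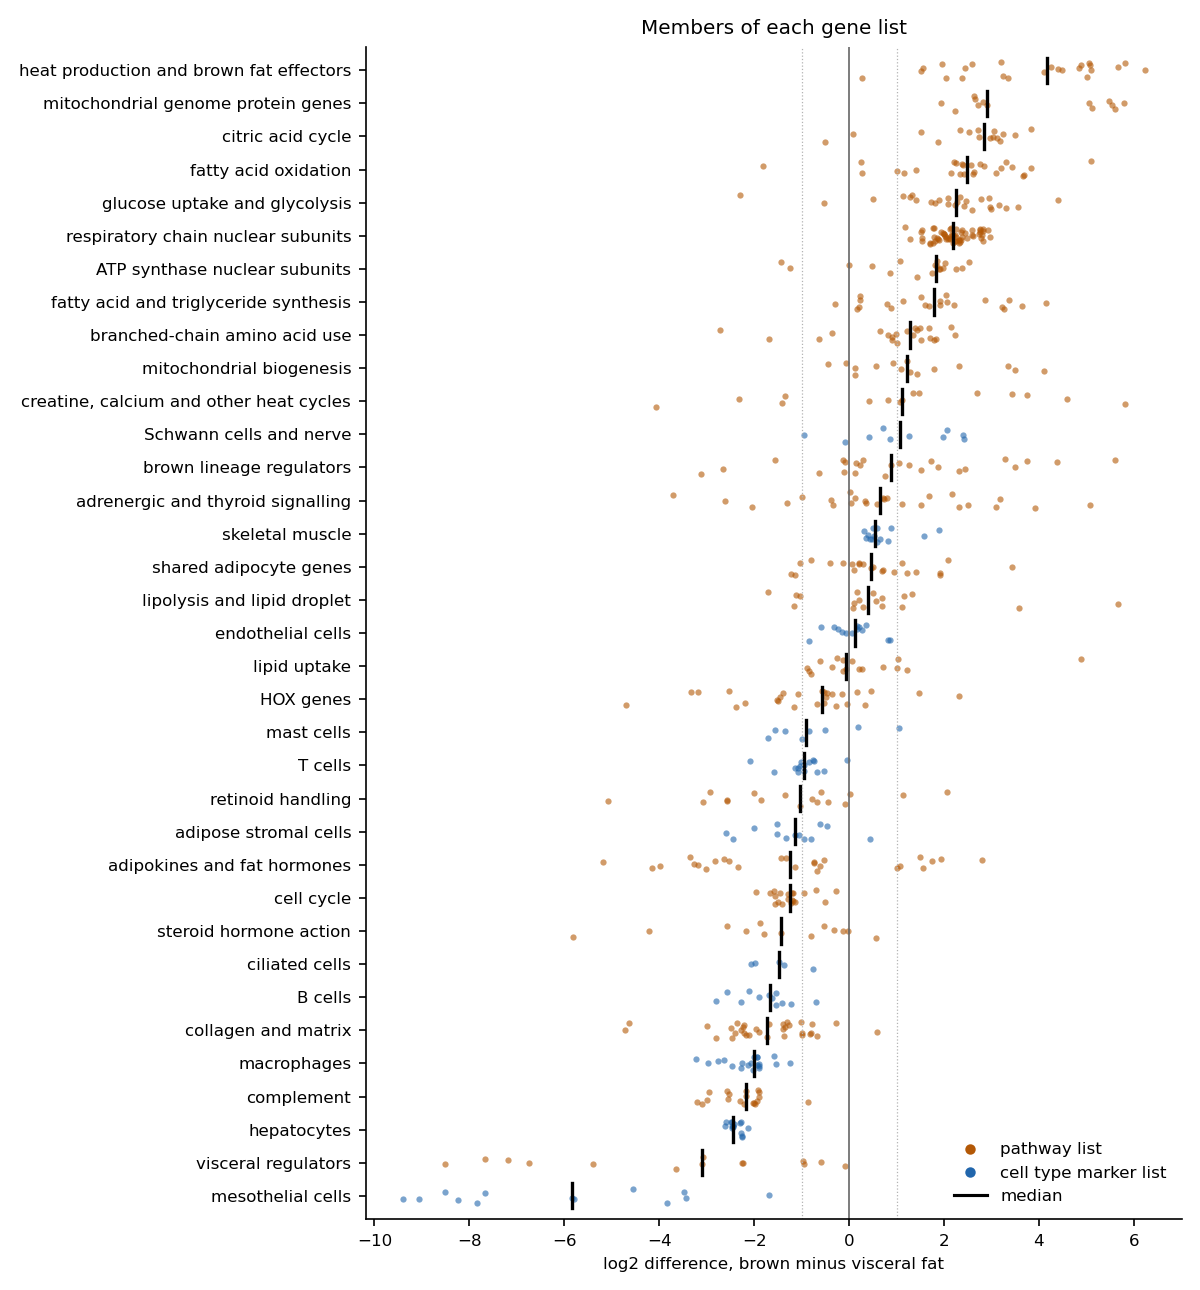
Log2 difference (brown minus visceral) of every tested member of each gene list, 1 row per list ordered by its median (black bar), with pathway lists in orange and cell type lists in blue and dotted lines at a 2-fold difference. The medians of heat production, the mitochondrial lists and fuel oxidation lie to the right of the upper line. Those of the mesothelial, visceral regulator, hepatocyte, complement and macrophage lists lie furthest to the left, beyond the lower line.

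Brown fat also carried more of the transcripts that make fat. In fatty acid and triglyceride synthesis 18 of 22 genes rose, 15 beyond 2-fold, none fell and the median was 1.80 (with plain totals 17 rose and 5 fell). Fasn, the fatty acid synthase, was at 8625 to 44403 CPM in brown fat (median 22911) and at 831 to 8882 CPM in visceral fat (median 2255), a log2 difference of 3.23 (SE 0.177, adjusted p = 1.04e-24). Acaca, which makes the malonyl unit for it, was at 797 to 5744 CPM in brown fat (median 2276) and at 60.2 to 775 CPM in visceral fat (median 185; log2 3.37, SE 0.156, adjusted p = 3.81e-28). Elovl6, which lengthens the product, differed by 4.16 (SE 0.232, adjusted p = 3.54e-24). The highest visceral library of Fasn passed the lowest brown library, and Acaca and Elovl6 did not overlap. In lipolysis and lipid droplet genes the direction depended on the scaling: 12 of 18 were higher and 4 lower (median 0.39), against 6 higher and 8 lower with plain totals. Of lipid uptake genes 5 of 17 were higher and 6 lower (median -0.07), against 4 higher and 11 lower with plain totals. Among the coats of lipid droplets, Plin5 and Plin4 separated the tissues in opposite directions, while Plin1 overlapped (log2 0.29, but -0.27 with plain totals). Plin5, which ties droplets to mitochondria, was at 189.6 to 445 CPM in brown fat (median 326) and at 11.3 to 109 CPM in visceral fat (median 22.1; log2 3.59, SE 0.156, adjusted p = 2.25e-29). Plin4 was at 615 to 1332 CPM in brown fat (median 863) and at 1541 to 4060.0 CPM in visceral fat (median 2987; log2 -1.71, SE 0.0816, adjusted p = 1.79e-27).

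General adipocyte genes differed about as often as all genes did. Of 23 such genes 14 were higher, 5 lower and 4 missed the test (82.9% of all genes passed it), with 6 beyond 2-fold (24.8% of all genes) and a median of 0.47 (all genes -0.02), and with plain totals 8 were higher and 11 lower. Pparg, the master regulator of adipocytes, was at 190.0 to 381 CPM in brown fat (median 294) and at 56.6 to 234 CPM in visceral fat (median 147), a log2 difference of 0.94 (SE 0.0883, adjusted p = 1.16e-14), which was 0.13 in TPM (not past the test). For 12 of the 23 the 95% interval of the log2 difference lay within 1 of 0, among them the fatty acid transporter Cd36, the lipases Lipe and Lpl, the droplet coat Plin1 and the transcription factor Cebpa. Hormone genes were more often lower in brown fat than higher. Of 26 adipokine genes 18 were lower in brown fat (13 beyond 2-fold) and 7 higher (5 beyond 2-fold), with a median of -1.24. Leptin, Lep, was at 9.12 to 519 CPM in brown fat (median 139) and at 363 to 2744 CPM in visceral fat (median 1496; log2 -3.35, SE 0.234, adjusted p = 8.10e-20). Resistin, Retn, was at 10.2 to 81.2 CPM in brown fat (median 32.9) and at 215 to 1209 CPM in visceral fat (median 592), with no overlap (log2 -4.15, SE 0.146, adjusted p = 8.35e-34). Adiponectin, Adipoq, was at 589 to 1276 CPM in brown fat (median 789.8) and at 894 to 3549.9 CPM in visceral fat (median 1783), a log2 difference of -1.15 (SE 0.0901, adjusted p = 8.51e-18) that missed the 2-fold test (adjusted p = 0.0568). Sfrp5, a secreted Wnt antagonist, differed by -5.18 (SE 0.228, adjusted p = 6.96e-29). Of those that rose, Nampt, which makes a precursor of NAD, was at 196 to 427 CPM in brown fat (median 319.9) and at 55.3 to 180.4 CPM in visceral fat (median 75.6; log2 1.93, SE 0.0632, adjusted p = 2.79e-35), and Vegfa, which drives the growth of capillaries, differed by 1.49 (SE 0.0586, adjusted p = 1.73e-31).

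Other routes of energy loss were uneven. Of 15 genes of creatine, calcium, glycerol phosphate and other heat cycles, 9 were higher and 4 lower (median 1.12, or 1.88 within mice). Gpd2, the mitochondrial enzyme of the glycerol phosphate shuttle, was at 998 to 2018 CPM in brown fat (median 1431) and at 27.6 to 429 CPM in visceral fat (median 43.3; log2 4.58, SE 0.197, adjusted p = 1.35e-29). The genes of the creatine route were mixed, with 4 lower, 1 higher (the creatine transporter Slc6a8, log2 0.41, but -0.14 with plain totals) and 1 that missed the test. That gene was Ckmt2, the muscle mitochondrial kinase, at 1.06 (adjusted p = 0.0789), against 2.27 within mice and 1.72 without mouse 2, both past the test. Ckb, the creatine kinase of brain and fat, was at 12.7 to 42.8 CPM in brown fat (median 24.0) and at 29.9 to 134 CPM in visceral fat (median 62.2; log2 -1.41, SE 0.109, adjusted p = 6.11e-18), and Gatm and Gamt, the enzymes that make creatine, differed by -1.34 (SE 0.0979, adjusted p = 4.21e-19) and -2.32 (SE 0.191, adjusted p = 8.19e-17; -1.61 for Gamt with Alb and Ckm as covariates). The mitochondrial kinase gene Ckmt1 was at 0 to 0.453 CPM in brown fat and at 0.343 to 2.88 CPM in visceral fat (log2 -4.07, SE 0.269, adjusted p = 5.83e-21). Muscle also expresses several genes of the list, and the part of muscle transcripts in it was not tested.

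Genes of hormone handling were more often lower than higher in brown fat. Of all genes 82.9% passed the test, 42.6% were lower and 15.2% were lower beyond 2-fold. Of 17 tested genes of retinoid handling 13 were lower in brown fat (6 beyond 2-fold) and 2 higher (median -1.03). The tissues did not overlap for 3 genes higher in visceral fat and 1 higher in brown fat. Aldh1a2, which makes retinoic acid and marks mesothelium, was at 0 to 1.16 CPM in brown fat (median 0.278) and at 4.58 to 23.1 CPM in visceral fat (median 13.0; log2 -5.07, SE 0.179, adjusted p = 9.95e-34). The retinoic acid receptor Rarb went the other way, at 8.99 to 21.5 CPM in brown fat (median 12.5) and at 1.64 to 5.40 CPM in visceral fat (median 3.07; log2 2.07, SE 0.0823, adjusted p = 2.36e-31). Of 13 genes of steroid hormone action 10 were lower (6 beyond 2-fold, 2 without overlap) and 1 higher (median -1.42). Sult1e1, which inactivates estrogens, differed by -5.81 (SE 0.225, adjusted p = 1.06e-31). Liver also expresses several retinoid and steroid enzymes, and without the Alb-rich libraries the medians were -1.09 and -1.24.

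Matrix, complement and immune transcripts were lower in brown fat. Of 33 collagen and matrix genes 32 fell, 24 beyond 2-fold, with a median of -1.73 (all genes: 42.6% lower, 15.2% beyond 2-fold). Col1a1, the main chain of fibrillar collagen, was at 69.3 to 279 CPM in brown fat (median 143) and at 123 to 819.7 CPM in visceral fat (median 341; log2 -1.32, SE 0.142, adjusted p = 1.43e-12). Col12a1 alone rose (log2 0.59, SE 0.126, adjusted p = 2.68e-05), and with plain totals it did not. All 19 complement genes fell, 17 beyond 2-fold (median -2.18, or -2.32 without the Alb-rich libraries). Liver makes most of the complement of plasma, and the part of liver transcripts in this list was not tested. C7, a part of the pore that lyses cells, was at 4.54 to 30.5 CPM in brown fat (median 11.6) and at 52.0 to 185 CPM in visceral fat (median 91.8; log2 -3.10, SE 0.146, adjusted p = 1.17e-27). All 20 macrophage markers fell beyond 2-fold (median -2.004), and their summed level was 215 to 848 CPM in brown fat and 1050 to 2481 CPM in visceral fat. Csf1r, the receptor of the macrophage growth factor, was at 24.9 to 77.4 CPM in brown fat (median 42.9) and at 125 to 268 CPM in visceral fat (median 185), with no overlap (log2 -2.07, SE 0.0767, adjusted p = 9.48e-33). All 20 cell cycle genes fell as well, 10 beyond 2-fold (median -1.25), with Mki67 at -1.66 (SE 0.217, adjusted p = 6.12e-10).

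Lymphocyte markers fell with wider spread. Of 15 T cell markers 14 were lower, 2 beyond 2-fold, and of 12 B cell markers 11 were lower, 6 beyond 2-fold (10 within mice). Of all genes 42.6% were lower and 15.2% lower beyond 2-fold, so the T cell count beyond 2-fold was not above that share. Values without the foreign libraries are not given for these markers, since 3 brown libraries were put in that set for their B cell genes. Their summed levels overlapped, at 12.5 to 143 CPM in brown fat and 33.1 to 131 CPM in visceral fat for T cells, and at 9.84 to 439 CPM in brown fat and 152 to 1574 CPM in visceral fat for B cells. All 13 mesothelial markers fell beyond 2-fold (median -5.84), from a summed level of 13.0 to 111 CPM in brown fat, against 324 to 644 CPM in visceral fat. This list holds several of the visceral regulators and leading falls named above. Wt1, for which visceral mouse 50 was left out, is a member. Of 13 stromal cell markers 12 fell, 7 beyond 2-fold, Dpp4, which marks progenitors of the fat interstitium, by -2.60 (SE 0.225, adjusted p = 6.06e-16) and the progenitor marker Pdgfra by -1.32 (SE 0.0785, adjusted p = 4.73e-23).

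Of 8 mast cell markers 6 were lower and 1 higher (median -0.91), and all 5 tested markers of ciliated cells (of 14) were lower, 4 beyond 2-fold.

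Nerve and vessel markers did not fall as the immune lists did. Of 10 tested Schwann cell and nerve markers 8 rose (5 beyond 2-fold) and 1 fell, with a median of 1.07. Sox10, the factor that defines Schwann cells, was at 1.03 to 3.66 CPM in brown fat (median 2.20) and at 0.0815 to 1.52 CPM in visceral fat (median 0.508; log2 1.99, SE 0.155, adjusted p = 6.43e-18). Of 14 endothelial markers 7 were higher and 5 lower, none beyond 2-fold, with a median of 0.12, and with plain totals 2 were higher and 12 lower. Kdr, the receptor of the Vegfa product, was at 185 to 297 CPM in brown fat (median 245) and at 90.5 to 169.6 CPM in visceral fat (median 137), with no overlap (log2 0.85, SE 0.0503, adjusted p = 3.36e-23), though not past the test in TPM (0.01). Lists for tissues that neither depot should hold were counted as well. Alb and Ckm, which chose the Alb-rich and foreign libraries, belong to these tissues. Of 15 hepatocyte markers 14 were lower in brown fat (median -2.44), 2 of them beyond 2-fold (15 within mice). Of all genes 42.6% were lower and 15.2% lower beyond 2-fold, so the main count beyond 2-fold was not above that share. The sums were 40.1 to 37962 CPM in brown fat and 317 to 103577 CPM in visceral fat. Of 14 skeletal muscle markers 2 were higher, a smaller share than the 40.3% of all genes, and 12 missed the test. With the mouse as a replicate block 14 were higher. The sums were 784 to 16328 CPM in brown fat and 51.2 to 38342 CPM in visceral fat. None of 14 epididymis markers passed the filter on low counts.

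Ucp1 was not absent from visceral fat. Without TMM scaling, 11 of 31 visceral libraries had over 100 CPM, and the other 20 ranged from 0.0425 to 79.9 CPM (median 4.83). The visceral library of A/J mouse 24 had 2986 CPM, which is 42.6% of the mean of brown fat, and those of mice 59, 1 and 17 had 658, 634 and 599 CPM. Of the 11 visceral libraries over 100 CPM of Ucp1, only that of mouse 7 had Zic1 at 0. In the others Zic1 ranged from 0.0426 CPM (mouse 12) to 3.42 CPM (mouse 24), so the visceral ratios rest on few counts. For each 1000 Ucp1 counts the brown libraries held 0.280 to 2.90 Zic1 counts (median 0.854), and the 11 visceral libraries held 0 to 5.03 (median 0.617). The visceral library of mouse 24 also had 8.87% mitochondrial counts, the highest of its tissue, and a Wt1 level of 5.85 CPM. Without mouse 24 the log2 difference of Ucp1 was 6.81.

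**Figure D4:**
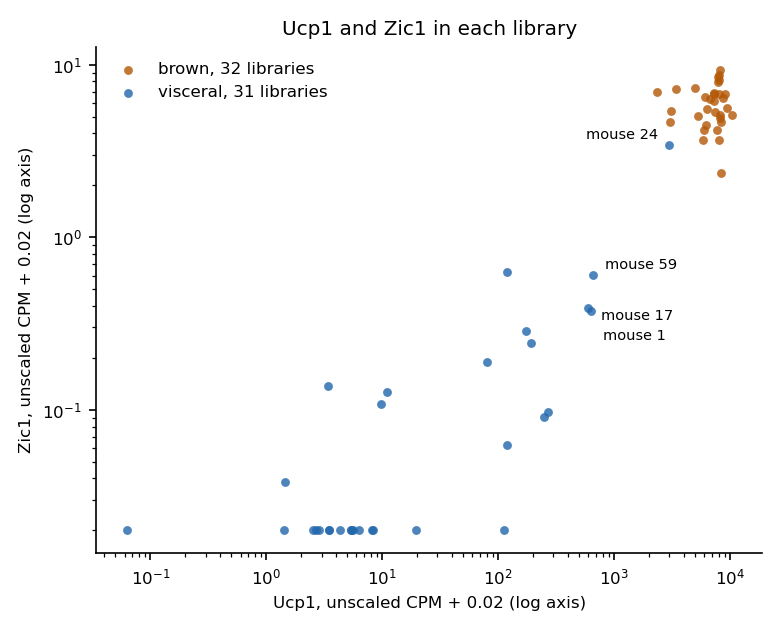
Zic1 against Ucp1 in every brown and visceral library (CPM of library totals plus 0.02, both axes logarithmic), with 4 visceral mice labelled. The visceral library of mouse 24 lies next to the brown libraries, and the other visceral libraries with Zic1 counts have less of both genes.

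The difference between the tissues was not the same in all strains for many genes. A test of the tissue by strain interaction called 5113 genes (27.3%), of which 3917 were also called without the Alb-rich libraries. Reads of strains other than C57BL/6J were aligned with a relaxed mismatch penalty, so levels of different strains also differ in their alignment, while both tissues of 1 strain share it. Among the genes called were 2 of 61 respiratory chain subunits, none of 26 genes of fatty acid oxidation and 4 of 24 genes of heat production. Other lists of fuel use had larger shares: 3 of 16 genes of the citric acid cycle, 5 of 22 of branched-chain amino acid use and 6 of 26 of glucose uptake and glycolysis. In fatty acid and triglyceride synthesis 7 of 22 were called (31.8%). Adrenergic and thyroid signalling had 11 of 26 (42.3%) and brown lineage regulators 10 of 25 (40.0%). For Ucp1 the interaction had an adjusted p of 0.556, which does not show that the strains were alike. Matrix and stromal genes were called more often: 22 of 33 collagen and matrix genes, 10 of 13 stromal markers, 13 of 20 cell cycle genes and 16 of 26 adipokines. These shares were not tested against the share of all genes. Col1a1 differed by -0.74 in C57BL/6J, -2.20 in A/J, -1.78 in DBA/2J and -0.47 in SJL (interaction adjusted p = 7.11e-06). Pi16, a marker of stromal progenitors, differed by -0.84, -2.36, -0.60 and -0.41 in the same order of strains (adjusted p = 9.28e-08). Adrb3, which did not differ over all strains, was higher in brown fat by 1.02 in DBA/2J (SE 0.186) and differed by -0.05 in C57BL/6J, -0.19 in A/J and -0.63 in SJL (interaction adjusted p = 2.94e-05).

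The 4 genes with the smallest interaction p were Lhfpl6, Lrrc8b, Sfxn1 and Cdsn, and Ptprf joined them without the Alb-rich libraries. Ptprf, a receptor tyrosine phosphatase, was at 1.96 to 8.79 CPM in C57BL/6J brown fat (median 2.95) and at 33.9 to 218 CPM in C57BL/6J visceral fat (median 58.0). In A/J it was at 151 to 219 CPM in brown fat (median 198) and at 38.5 to 123 CPM in visceral fat (median 63.3), and DBA/2J and SJL were on the side of A/J, with medians of 130.4 and 167 CPM in brown fat and 63.6 and 50.0 CPM in visceral fat. The brown median was thus low in C57BL/6J alone, and the visceral medians lay between 50.0 and 63.6 CPM in all 4 strains, with log2 differences of -4.50, 1.47, 0.96 and 1.21 in C57BL/6J, then A/J, then DBA/2J and then SJL (interaction adjusted p = 2.14e-15). In C57BL/6J it was -3.51 without the Alb-rich libraries. Cdsn, an adhesion protein of the outer skin, was at 10.5 to 22.8 CPM in SJL brown fat (median 16.9) and at 138 to 222 CPM in SJL visceral fat (median 190.5). In DBA/2J it was at 35.2 to 73.2 CPM in brown fat (median 56.0) and at 4.09 to 14.2 CPM in visceral fat (median 6.27). The direction of Cdsn thus turned between strains, at -1.56, 2.32, 2.74 and -3.50 in the same order (adjusted p = 1.50e-18). Sfxn1, which carries serine into mitochondria, was at 15.7 to 25.4 CPM in A/J brown fat (median 18.7) and at 75.3 to 140.4 CPM in A/J visceral fat (median 112). In the other strains its brown medians were 109.9 to 161 CPM and its visceral medians 79.4 to 153 CPM, and the log2 differences were 0.45, -2.50, 0.45 and -0.28 (adjusted p = 9.43e-19).

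Lrrc8b, a subunit of the volume-regulated anion channel, was at 6.85 to 13.6 CPM in C57BL/6J brown fat (median 10.5) and at 10.5 to 21.1 CPM in C57BL/6J visceral fat (median 18.1). In A/J it was at 98.9 to 157 CPM in brown fat (median 129) and at 23.3 to 47.6 CPM in visceral fat (median 28.8), and DBA/2J and SJL had brown medians of 116 and 96.8 CPM against visceral medians of 23.5 and 23.9 CPM. Its log2 differences were -0.76, 1.98, 2.37 and 2.12 in C57BL/6J, then A/J, then DBA/2J and then SJL (interaction adjusted p = 2.57e-19). Lhfpl6, a membrane protein with 4 spans, was lower in brown fat in 2 strains, by -1.41 in C57BL/6J and -1.82 in A/J, and the tissues overlapped in DBA/2J (0.03) and SJL (0.36; adjusted p = 6.81e-22). Its brown medians were 9.52 and 8.33 CPM in C57BL/6J and A/J against visceral medians of 26.2 and 32.0 CPM, while in DBA/2J and SJL they were 36.7 and 33.9 CPM in brown fat and 36.9 and 25.6 CPM in visceral fat.

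**Figure D5:**
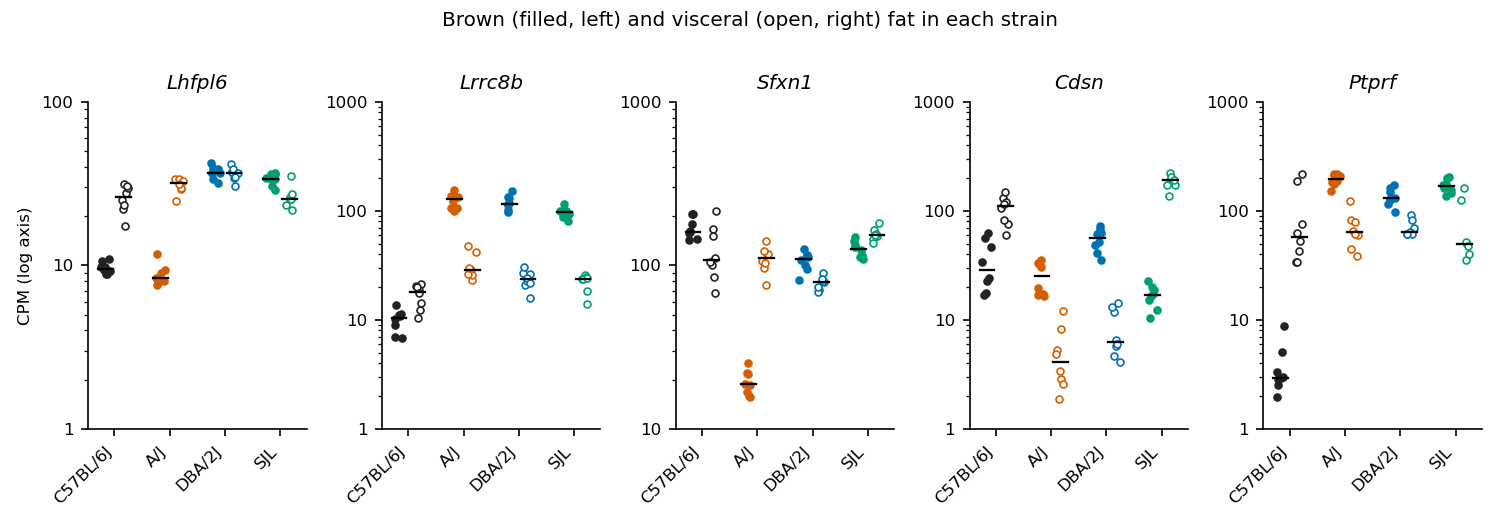
CPM (TMM-scaled, log axis) of Lhfpl6, Lrrc8b, Sfxn1, Cdsn and Ptprf by strain, with brown libraries as filled points at the left and visceral libraries as open points at the right of each strain. Brown fat stands apart in C57BL/6J for Lrrc8b and Ptprf, in A/J for Sfxn1 and in C57BL/6J and A/J for Lhfpl6, and Cdsn reverses between strains.

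No gene passed the tissue by diet interaction (0% of genes). Its model held no tissue by strain terms, although 5113 genes were called for that interaction, so differences between strains stayed in its residual spread. The absence of calls therefore does not show that the tissue difference was alike on all diets. edgeR called 0 genes with 600 at an unadjusted p under 0.05, limma on TPM called 0, and DESeq2 called 2. Among them was Iglc1, an immunoglobulin light chain gene (DESeq2 adjusted p = 0.0246), which edgeR also called when mouse 64 was left out (adjusted p = 0.0156). It is named for these values and was low, with medians of 0.109 CPM in brown fat and 1.05 CPM in visceral fat. The smallest interaction p among genes of at least 5 CPM belonged to Marcksl1, Gtf2ird1, Dpf3 and Gpi-ps, which all had an adjusted p of 0.731. Without the Alb-rich libraries the leading genes were Shisa5 and Mrs2 (adjusted p = 0.287), Igfbp6 (0.337) and Ptgis (0.348).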

How the data were processed

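RNA was sequenced from 5 tissues of 35 mice, and 32 brown and 31 visceral libraries were compared here. Per the labels and the submitters' processing notes, reads were checked with FastQC, trimmed with Trim Galore, aligned with HISAT2 to GRCm39 and counted with HTSeq (versions not given in the sources used here), and reads with several positions were shared between them. The authors deposited these as estimated counts, of which 74.4% of the nonzero values were whole (tolerance 1e-06), and as TPM. Of 56980 gene identifiers 56236 matched the GENCODE annotation.

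Counts were rounded, filtered (at least 10 counts, total 15) and TMM-scaled, and 18740 genes were tested with edgeR 4.0.16 (limma 3.58.1, R 4.3.3, quasi-likelihood, Benjamini-Hochberg adjusted p under 0.05) with strain and diet as terms. The test beyond 2-fold was glmTreat. Figures and motif searches used Python 3.11.15 and matplotlib 3.10.9. Interactions of tissue with strain or diet were tested in the same way. The procedure was tested on simulated data. Alternatives were other library sets, Alb and Ckm as covariates, the mouse as a replicate block, RLE, DESeq2 1.42.0, no filter, the deposited TPM in limma (log2 after adding 1, mean TPM of at least 1), each strain alone and each mouse left out. Plain library totals, the diet interaction without each mouse and the list counts without Alb-rich or foreign libraries were added after seeing the data.

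Genes named are the 12 largest rises and 12 largest falls (protein coding, mean of at least 5 CPM in the higher tissue, without mitochondrial genome genes and placeholder symbols), tissue identity genes, up to 4 leading members of each list with those whose role is explained, the 4 smallest p of each interaction, and shared adipocyte genes with an interval within 1 of 0. A few genes that this rule names are not reported here. The libraries left out, gene lists and markers were chosen with earlier results of these data known. Both tissues of 1 number come from 1 animal. Over 29 such pairs the deviations from an additive fit of strain, diet and tissue correlated with a median of 0.157 (-0.55 to 0.67), above 0.1 in 16 pairs. That fit held no tissue by strain terms, so strain differences in the tissue effect stayed in these deviations. The values are therefore not a clean measure of the pairing.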

Additional observations from a re-analysis of the deposited data

Results flagged for a closer look

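The brown minus visceral difference of 5 genes depended on the strain by the interaction test: Lhfpl6 (adjusted p = 6.81e-22), Lrrc8b (2.57e-19), Sfxn1 (9.43e-19), Cdsn (1.50e-18) and Ptprf (2.14e-15), by edgeR's quasi-likelihood test. The relaxed alignment of strains other than C57BL/6J is shared by both tissues of a strain, and its part in these differences was not tested.

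Single libraries stood far from the rest of their group in 7 of 104 groups examined for the genes leading the interactions, and chance gives about 1 in 20 groups. Lhfpl6 was at 11.6 CPM in brown fat of A/J mouse 18, with the next library at 9.39 CPM, and at 35.1 CPM in visceral fat of SJL mouse 54, with the next at 27.2 CPM. Ptprf was at 8.79 CPM in brown fat of C57BL/6J mouse 16, with the next at 5.04 CPM. Gtf2ird1 was at 125 CPM in brown fat of mouse 17 on the American diet, with the next at 85.9 CPM. Mrs2 was at 79.8 CPM in visceral fat of mouse 24 on the Mediterranean diet (next 54.1 CPM) and at 66.1 CPM in visceral fat of mouse 57 on the vegetarian diet (next 47.1 CPM). Igfbp6 was at 31.1 CPM in brown fat of mouse 42 on the vegetarian diet, with the next at 18.4 CPM. Mice 17, 24, 42 and 57 are among the Alb-rich libraries of those tissues.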

How the results depend on the processing

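The count of genes that passed the test lay between 11924 (within SJL) and 22377 (no filter), against 15538, and between 15412 and 15601 when each mouse was left out. The count beyond 2-fold was 8117 with no filter, against 4652, and 4545 to 4931 without 1 mouse each. With the mouse as a replicate block 15484 genes were called and 5015 beyond 2-fold, and among the named genes this paired fit changed the calls of Slc27a2 (1.09) and Ckmt2 (2.27) alone. The strain interaction lay between 3762 and 5935 genes, against 5113. The diet interaction called 2 genes by DESeq2, and 0 to 2 without 1 mouse each (2 without mouse 64). The sign of Fabp4 turned without the Alb-rich (-0.0944) and foreign libraries (-0.121), with covariates (-0.0582), plain totals (-0.48), TPM (-0.74), and within A/J (-0.0665) and DBA/2J (-0.0129). That of Adrb3 turned in the same first 5 settings (-0.0891, -0.0756, -0.0374, -0.51 and -0.77), with RLE (-0.00761), DESeq2 (-0.00764), within A/J (-0.24) and SJL (-0.64) and without mouse 39 (-0.00392, in a range up to 0.0849 over the mice left out). Slc6a8 and Plin1 turned with plain totals (-0.142 and -0.269) and TPM (-0.373 and -0.543), Plin1 also within SJL (-0.0489), Slc27a2 with plain totals (-0.12), Nrf1 within C57BL/6J (0.0293) and Col12a1 in TPM (-0.20). The causes were not tested. Low genes such as Zic1 and Hoxc9 rest on few counts per library.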

Other observations

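Hoxc10, which was at 16.2 CPM in the visceral library of mouse 50 that was left out, also varied among the visceral libraries that were used. It was at 16.8 CPM in the library of mouse 2, where Ckm was at 26.5% of its muscle level, at 8.81 CPM in that of mouse 22 (Ckm 10.8%) and at 7.00 CPM in that of mouse 25 (Ckm 2.98%). Its median was 0.105 CPM in brown fat and 0.865 CPM in visceral fat after TMM scaling. The part of muscle transcripts in these levels was not tested.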
